A study of Mus musculus with 6 samples.

Results

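The circadian clock output genes examined here were 10 transcripts of the negative and output arms of the clock: Per1, Per2, Per3, Cry1 and Ciart, the nuclear receptors Nr1d1 and Nr1d2, and the proline and acidic amino acid-rich basic leucine zipper (PAR-bZIP) factors Dbp, Tef and Hlf. They were found by Ensembl identifier, and all 10 were among the 55414 genes of the count table. The low-count filter kept 9 of them and 13026 genes in all, and Hlf did not pass it. The RNA came from Paneth cells (PCs), the secretory cells at the crypt base of the small intestine, which had been purified with a cell sorter 15 h after injection of phosphate-buffered saline (PBS, control) or tumour necrosis factor (TNF). There were 3 PBS and 3 TNF libraries, each from a different mouse, and both groups were C57BL/6J mice labelled IFNAR1 KO, so the controls also lacked the type I interferon receptor subunit. The labels give no age, dose, or time of day of injection or isolation, so the phase of the clock in these mice is not known. At a single time point, a shift of phase and a change of overall level cannot be told apart.

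As background, the mammalian clock is a transcriptional feedback loop. The factors CLOCK (or its relative NPAS2) and BMAL1 bind E-boxes and switch on the Per, Cry, Ciart and Nr1d genes, and the PER and CRY proteins then block their own activators. NR1D1 and NR1D2 (REV-ERB alpha and beta) repress Bmal1 and compete with the ROR receptors for the same elements, whereas DBP, TEF and HLF activate genes through D-boxes. In liver and gut, Dbp, Nr1d1 and the Per genes are known for rhythms of high amplitude, and Bmal1 runs in the opposite phase to Nr1d1.

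The regulatory letters of the loop were looked for in the 250 bases upstream of the start of each gene's canonical transcript (GENCODE, GRCm39), on both strands. The motifs were the E-box CACGTG, the E-prime box CACGTT, the D-boxes TTATGTAA and TTACGTAA, the cores TAGGTCA and TGGGTCA of the ROR and REV-ERB element (RORE), and the cAMP response element TGACGTCA. No match overlapped another in the 10 windows, and palindromic motifs were counted once per position. The E-box was in 4 of the 10 windows (Per1, Tef, Cry1 and Ciart), where 6.29% of 21627 protein-coding genes had one. The E-prime box was in 2 (Nr1d1 and Cry1, background 4.17%) and TTATGTAA in 2 (Per2 and Per3, background 0.842%). Dbp held both RORE cores (background 2.17% for TAGGTCA and 3.19% for TGGGTCA). TTACGTAA (background 0.102%) and TGACGTCA (1.69%) were in 0 of the 10 windows, and the windows of Nr1d2 and Hlf held no motif of this set.

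The windows with an E-box or D-box are printed 5′ to 3′ on the strand of the gene, ending at the base before the start, with motif letters in capitals. Those of Dbp (RORE cores) and Nr1d1 (E-prime box) are not printed. For Cry1 all 250 bases, and for Ciart 169 of them, are also exon sequence of other annotated transcripts of the same gene, and 23 bases are so in Per2.
Per1 (chr11:68989018-68989267, plus strand): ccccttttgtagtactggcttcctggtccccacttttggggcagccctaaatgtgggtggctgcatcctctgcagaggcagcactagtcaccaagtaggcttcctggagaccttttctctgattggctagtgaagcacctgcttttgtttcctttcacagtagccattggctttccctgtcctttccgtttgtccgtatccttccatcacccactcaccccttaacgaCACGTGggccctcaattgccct
Tef (chr15:81695365-81695614, plus strand): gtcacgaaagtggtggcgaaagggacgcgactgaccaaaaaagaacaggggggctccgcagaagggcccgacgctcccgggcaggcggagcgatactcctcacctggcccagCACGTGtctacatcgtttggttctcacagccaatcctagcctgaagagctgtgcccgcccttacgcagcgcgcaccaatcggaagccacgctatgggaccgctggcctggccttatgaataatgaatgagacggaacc
Cry1 (chr10:85020950-85021199, minus strand): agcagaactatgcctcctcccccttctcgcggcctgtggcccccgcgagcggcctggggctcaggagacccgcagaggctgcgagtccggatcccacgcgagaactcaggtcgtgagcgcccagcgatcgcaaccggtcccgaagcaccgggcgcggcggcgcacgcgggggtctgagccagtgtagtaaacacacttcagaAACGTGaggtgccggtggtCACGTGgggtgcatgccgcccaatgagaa
Ciart (chr3:95789557-95789806, minus strand): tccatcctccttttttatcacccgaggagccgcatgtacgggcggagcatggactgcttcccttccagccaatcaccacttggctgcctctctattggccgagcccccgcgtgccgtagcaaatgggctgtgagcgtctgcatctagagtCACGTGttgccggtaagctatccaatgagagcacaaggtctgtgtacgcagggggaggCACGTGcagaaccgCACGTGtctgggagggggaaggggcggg
Per2 (chr1:91387047-91387296, minus strand): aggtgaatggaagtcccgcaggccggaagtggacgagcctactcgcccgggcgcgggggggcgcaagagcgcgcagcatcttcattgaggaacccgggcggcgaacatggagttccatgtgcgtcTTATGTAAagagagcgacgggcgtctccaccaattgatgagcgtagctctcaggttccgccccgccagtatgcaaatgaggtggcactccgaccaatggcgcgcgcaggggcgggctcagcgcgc
Per3 (chr4:151129141-151129390, minus strand): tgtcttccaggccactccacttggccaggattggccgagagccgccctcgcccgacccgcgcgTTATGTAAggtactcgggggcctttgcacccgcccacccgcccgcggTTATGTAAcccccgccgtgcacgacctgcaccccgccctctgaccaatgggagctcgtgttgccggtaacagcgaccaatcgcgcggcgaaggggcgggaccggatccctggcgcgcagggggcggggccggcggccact
Ciart carried 3 E-boxes at 100 to 23 bases before its start, and Per3 carried 2 copies of the D-box at 187 to 133 bases. A match describes these letters only and does not show that a factor was bound.

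**Figure D1:**
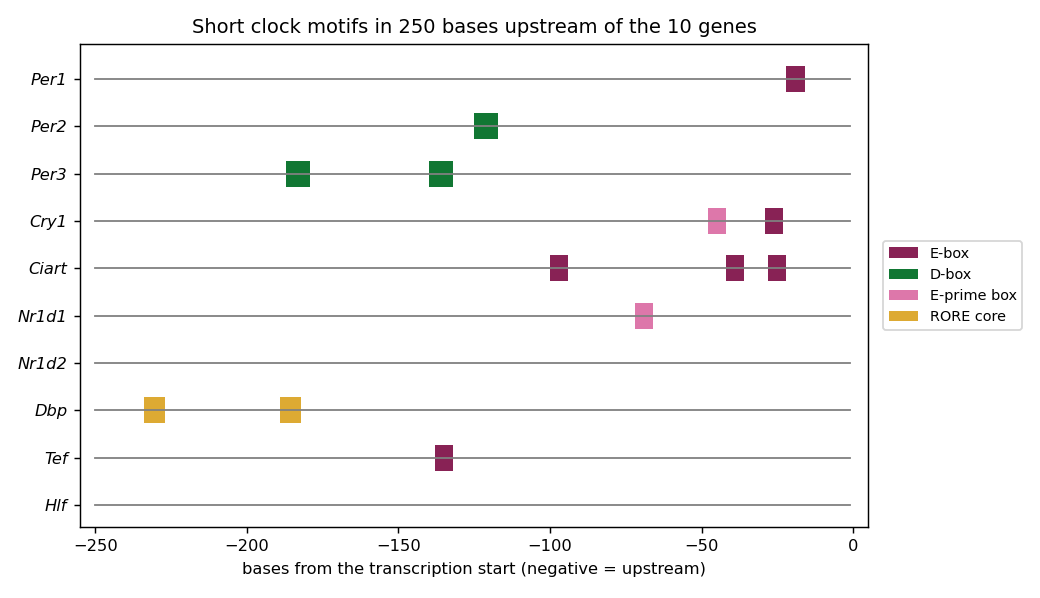
Position of each motif match (coloured block) in the 250 bases upstream of the 10 genes, with distance from the transcription start in bases on the x axis and 1 line per gene. The 3 E-boxes of Ciart and the 2 D-boxes of Per3 stand out, and Nr1d2 and Hlf have no block.

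Total counts were 12747484 to 17039511 per library, and 16483 to 18449 genes were detected. All 10 PC markers were counted, and their summed level was 341200 to 419500 CPM (counts scaled to library size, with trimmed mean of M-values factors, TMM) in PBS and 251600 to 551900 CPM in TNF. Most of this sum was Lyz1 and Defa24. One library stood apart from its group. On the first principal component of all tested genes (48.9% of the variance), TNF replicate 1 lay at -39.3, beside the PBS libraries at -35.8 to -28.7, and TNF replicates 2 and 3 lay at 63.0 and 73.1. It was kept in the TNF group as labelled, and results are also given without it.

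The comparison of TNF with PBS asked how an injection of TNF changes the PC transcriptome. No clock output gene passed an adjusted p of 0.05 in the edgeR fit over all genes, where 0% of the 13026 genes did. At an unadjusted p under 0.05 there were 2 of the 9 tested genes, Tef and Nr1d2, both higher in TNF, beside 12.3% of all genes (8.25% higher and 4% lower). Of the members, 4 were higher and 5 lower, with a median log2 fold change of -0.12, against 50% higher and a median of -6e-04 over all genes. DESeq2 gave 0 members, beside 1.78% of genes, with Ciart given no adjusted p there. Limma-voom gave 0 members and 0% of genes, with 12.8% of genes at an unadjusted p under 0.05. In these bulk samples, fewer expressing cells and less RNA per cell cannot be told apart.

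Nr1d2 (ENSMUSG00000021775, chromosome 14, 4230545 to 4266624), which encodes the repressor REV-ERB beta, was the most abundant member per length of transcript. It had 27.6, 32.4 and 21.5 CPM (PBS, replicates 1 to 3) against 41.5, 33.7 and 41.1 CPM (TNF, same order). All TNF libraries were above all PBS libraries, though TNF replicate 2 only just, and TNF replicate 1 was the highest of the 6. The means were 27.2 ± 5.47 and 38.8 ± 4.37 CPM (SD, n = 3), and the log2 fold change was 0.51 (SE 0.22, 95% interval 0.01 to 1.0066, edgeR adjusted p 0.400). Without TMM scaling the groups overlapped, since PBS replicate 2 had 35.9 CPM and TNF replicate 1 had 33.04 CPM.

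Cry1 (ENSMUSG00000020038, chromosome 10, 84967560 to 85021252) encodes a cryptochrome, a strong repressor of CLOCK and BMAL1, and went the other way. Its levels were 17.8, 12.4 and 12.6 CPM (PBS) against 11.6, 9.39 and 7.25 CPM (TNF, replicates 1 to 3). Every TNF library was below every PBS library, and this held without TMM scaling, where 14.6% of all genes did not overlap (13.4 to 16.99 CPM, PBS, against 6.63 to 11.3 CPM, TNF). The log2 fold change was -0.60 (SE 0.28, 95% interval -1.22 to 0.02, edgeR adjusted p 0.427). Nr1d2 and Cry1 were the 2 of 9 members whose groups did not overlap, where 16.9% of all genes did not (9.07% with TNF higher and 7.82% with TNF lower).

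Tef (ENSMUSG00000022389, chromosome 15, 81686622 to 81711064) was the PAR-bZIP gene with most transcript. It had 4.69, 8.08 and 5.51 CPM (PBS) against 7.65, 13.8 and 11.7 CPM (TNF, replicates 1 to 3). TNF replicates 2 and 3 were the highest of the 6 libraries, whereas TNF replicate 1 lay within the PBS range. The log2 fold change was 0.86 (SE 0.34, 95% interval 0.11 to 1.61, edgeR adjusted p 0.358). Without TNF replicate 1 it was 1.08 (SE 0.31), and Tef then passed at an edgeR adjusted p of 0.0370, the 1 member to do so. In that fit 14.5% of 13660 genes passed (9.1% higher and 5.4% lower).

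The other PAR-bZIP genes were scarce. Dbp (ENSMUSG00000059824, chromosome 7, 45354512 to 45359627), the D-box activator named after the albumin promoter, had 14, 10 and 22 counts in PBS and 18, 22 and 10 counts in TNF, or 1.10 ± 0.481 and 1.14 ± 0.366 CPM. The groups overlapped fully (log2 fold change 0.05, edgeR adjusted p 0.982), but the 95% interval of -1.45 to 1.55 was wide, and changes of 2-fold in either direction lie within it. Of the Dbp exon bases, 15.5% are also exon sequence of Sphk2 on the opposite strand. Hlf (ENSMUSG00000003949, chromosome 11, 90227221 to 90281761) had 0, 0 and 1 counts in PBS and 4, 2 and 0 in TNF, where a library at 0 may still hold up to 0.200 to 0.242 CPM, and gave no test. Such limits cover counting error only.

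The 3 Period genes, which encode the PER partners of cryptochrome, differed in level and in spread. Per1 (ENSMUSG00000020893, chromosome 11, 68986035 to 69002300) is also an immediate target of glucocorticoid and cAMP signals. It had 23.2, 18.6 and 7.20 CPM (PBS) against 10.7, 13.4 and 15.2 CPM (TNF). The TNF values lay inside the PBS range, which was itself 3.22-fold from lowest to highest (log2 fold change -0.31, SE 0.39, edgeR adjusted p 0.779). Per2 (ENSMUSG00000055866, chromosome 1, 91343700 to 91387069) was steadier, at 5.89 ± 0.818 CPM (PBS) against 4.997 ± 1.19 CPM (TNF), with a log2 fold change of -0.23 (SE 0.34, adjusted p 0.816).

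Per3 (ENSMUSG00000028957, chromosome 4, 151081373 to 151129140), the Period gene that the core loop needs least, had 1.80, 5.54 and 4.56 CPM (PBS) against 2.80, 7.14 and 10.9 CPM (TNF, replicates 1 to 3). As for Tef, TNF replicates 2 and 3 were the highest libraries and TNF replicate 1 lay within the PBS range. The log2 fold change was 0.81 (SE 0.56, 95% interval -0.45 to 2.06, edgeR adjusted p 0.582), and 1.19 without TNF replicate 1 (SE 0.45, adjusted p 0.103). It was 0.34 without TNF replicate 3 (adjusted p 0.978) and 0.46 without PBS replicate 1 (adjusted p 0.778), so its size rested on single libraries.

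Nr1d1 and Ciart complete the repressors. Nr1d1 (ENSMUSG00000020889, chromosome 11, 98658752 to 98666188), the gene of REV-ERB alpha, had 6.64, 12.01 and 4.63 CPM (PBS) against 7.48, 5.87 and 8.13 CPM (TNF), all 3 within the PBS range (log2 fold change -0.12, SE 0.38, edgeR adjusted p 0.922). Of its exon bases, 52.3% are also exon sequence of Thra on the opposite strand, and the strand setting of the counting is not given, so reads of these genes may not be told apart. Ciart (ENSMUSG00000038550, chromosome 3, 95785815 to 95789991), also called Chrono, encodes a repressor that binds BMAL1. It had 15, 16 and 0 counts in PBS and 15, 1 and 0 counts in TNF, so that 3 libraries had 15 or 16 counts and the rest 0 or 1, in both groups. Its log2 fold change was -0.77 with an SE of 1.495 (adjusted p 0.864) and moved to -4.26 (SE 1.93, adjusted p 0.173) without TNF replicate 1.

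**Figure D2:**
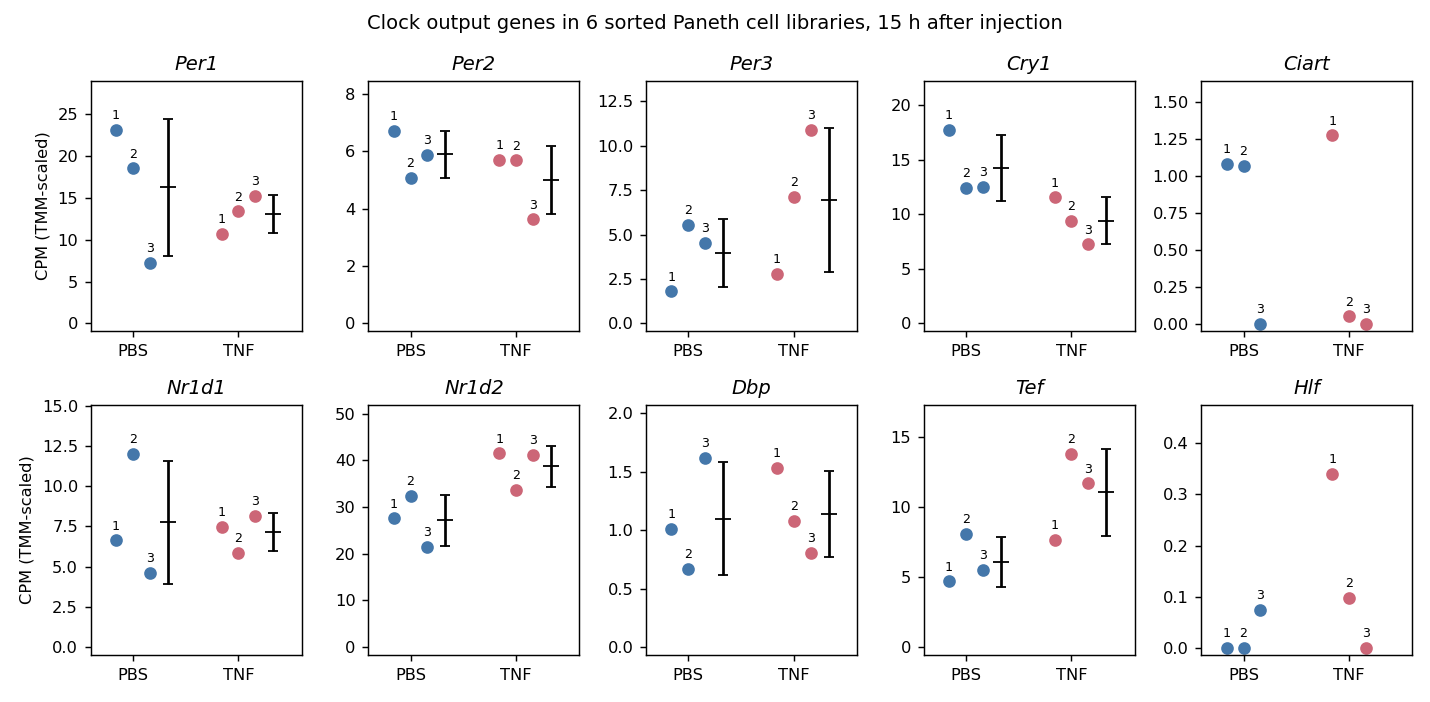
Level of each of the 10 genes in TMM-scaled CPM (y axis, separate scale per gene, from 0) in PBS (blue) and TNF (red) libraries, with replicate numbers beside the points and mean ± SD bars except for Ciart and Hlf, which have libraries at 0. The groups do not overlap for Nr1d2 (21.5 to 32.4 against 33.7 to 41.5 CPM) and Cry1 (12.4 to 17.8 against 7.25 to 11.6 CPM).

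Between genes, levels were compared per kilobase of exon on the CPM scale (RPKM). In PBS the order was Nr1d2 (3.00 ± 0.604 RPKM), Cry1 (2.86 ± 0.610), Nr1d1 (2.39 ± 1.18), Per1 (2.13 ± 1.07), Per2 (0.897 ± 0.125), Tef (0.738 ± 0.214), Per3 (0.378 ± 0.185), Dbp (0.316 ± 0.139), Ciart (0.275 ± 0.238) and Hlf (0.00354 ± 0.00612). Neighbours in this order overlapped in range, except Tef above Per3. In TNF, Nr1d2 stood clear of the next gene (3.73 RPKM or more, against at most 2.51 RPKM for Nr1d1), Tef ranked above Per2, and Cry1 below Nr1d1.

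The spread between mice of a group also differed between members. The SD of log2 CPM among the PBS libraries was 0.88 for Per1, 0.83 for Per3 and 0.68 for Nr1d1, against a median of 0.24 over the 9767 genes of at least 2 in mean log2 CPM. It was 0.20 for Per2, 0.29 for Cry1 and 0.30 for Nr1d2, close to that median. In TNF the SD was 0.25 for Per1 and 0.24 for Nr1d1 but 0.97 for Per3, where the median was 0.35. PBS replicate 3 had the lowest Per1, Nr1d1 and Nr1d2 level of all 6 libraries and no Ciart count, as did TNF replicate 3 for Ciart. The same PBS library had the highest Dbp level (1.62 CPM). For Per2, Per3, Tef and Cry1 it lay within the range of the other libraries.

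The activating arm of the loop was examined next. Of the 7 listed genes, Rorb had 0 counts in all libraries and 6 were tested, 4 higher and 2 lower (median log2 fold change 0.23). Bmal1 (ENSMUSG00000055116, chromosome 7, 112806152 to 112914735), the partner of CLOCK and a target of the REV-ERBs, had 19.5, 15.3 and 17.3 CPM (PBS) against 10.1, 11.2 and 11.6 CPM (TNF). Every TNF library was below every PBS library, TNF replicate 1 being the lowest, and this held without TMM scaling (16.9 to 18.7 against 8.06 to 13.4 CPM). The log2 fold change was -0.66 (SE 0.22, 95% interval -1.17 to -0.16, edgeR unadjusted p 0.0149, adjusted p 0.314), and it missed an adjusted p of 0.05 also without TNF replicate 1 (-0.59, adjusted p 0.116). Bmal1 was the 1 of 6 tested activators without overlap, and the 1 with an unadjusted edgeR p under 0.05. Over all genes, 16.9% did not overlap (7.82% with TNF lower), and 12.3% had such a p (4% lower).

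The other activators had smaller or less certain differences. Clock was at 46.8 ± 3.22 CPM (PBS) against 51.2 ± 2.33 CPM (TNF), with a log2 fold change of 0.13 (95% interval -0.28 to 0.54, edgeR adjusted p 0.806), and 11.9% of its exon bases are shared with Tmem165 on the opposite strand. Npas2 was at 15.1 ± 2.80 and 19.1 ± 1.67 CPM (log2 fold change 0.34, adjusted p 0.573). Rora, named after its values were seen, was the 1 activator past an adjusted p of 0.05 without TNF replicate 1 (log2 fold change 0.98, edgeR adjusted p 0.0351), and 0.67 with all libraries (adjusted p 0.475). That is 1 of 6 activators, where 14.5% of all genes passed.

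Because Nr1d2 was higher and Bmal1 lower, their difference within each library, which does not depend on library scaling, was computed after these values were seen. On the log2 CPM scale, Nr1d2 minus Bmal1 was 0.50, 1.08 and 0.31 in PBS and 2.02, 1.58 and 1.81 in TNF replicates 1 to 3. In counts, there were 1.42, 2.12 and 1.24 reads of Nr1d2 per read of Bmal1 in PBS and 4.10, 3.02 and 3.54 in TNF. TNF replicate 1 had the highest ratio, unlike its place beside PBS on the first principal component. The pair was picked for this pattern, so the values are a description without a test. Nr1d1 minus Bmal1 overlapped between the groups, at -1.53, -0.34 and -1.87 in PBS and -0.43, -0.91 and -0.50 in TNF. Per1 minus Cry1 also overlapped, at 0.38, 0.57 and -0.79 in PBS and -0.11, 0.51 and 1.06 in TNF. The 9 tested output genes as a whole did not show the pattern of Nr1d2 and Bmal1. Their mean log2 CPM minus that of the 6 activators was -0.63, -0.72 and -1.45 in PBS and -0.81, -1.08 and -1.27 in TNF, with the TNF values inside the PBS range.

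**Figure D3:**
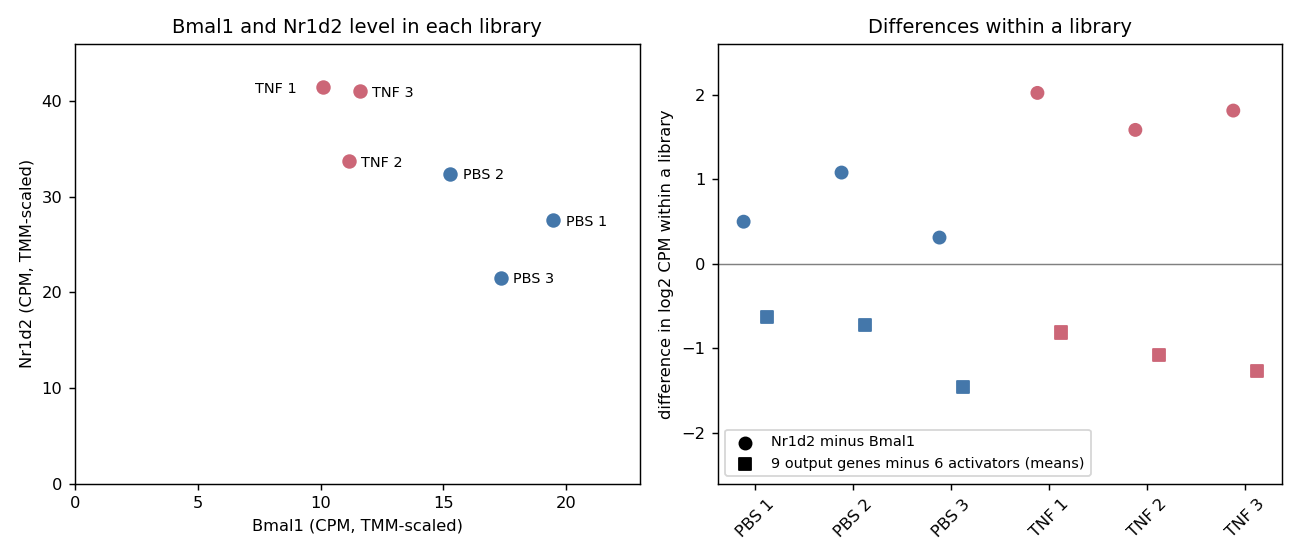
Left, level of Nr1d2 against Bmal1 in each library (TMM-scaled CPM, axes from 0). Right, difference in log2 CPM within each library for Nr1d2 minus Bmal1 (circles) and for the mean of 9 output genes minus the mean of 6 activators (squares), PBS in blue and TNF in red. Circles are at 0.31 to 1.08 in PBS and 1.58 to 2.02 in TNF, whereas the squares of the groups overlap.

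Other repressors of the loop did not pass the test. Bhlhe40 (DEC1), an E-box repressor, was at 52.0 ± 6.98 CPM (PBS) against 65.5 ± 2.04 CPM (TNF), with no overlap (log2 fold change 0.33, edgeR adjusted p 0.509), but the groups overlapped without TMM scaling. Over all genes, 16.9% had no overlap, 9.07% with TNF higher. Cry2 was at 3.30 ± 0.721 and 5.21 ± 1.71 CPM (log2 fold change 0.66, adjusted p 0.534), the opposite sign to Cry1. Nfil3, which competes with the PAR-bZIP factors at D-boxes, was at 9.37 ± 3.49 and 7.22 ± 1.10 CPM (log2 fold change -0.37, adjusted p 0.676). Bhlhe41 had 0 counts in all libraries.

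**Figure D4:**
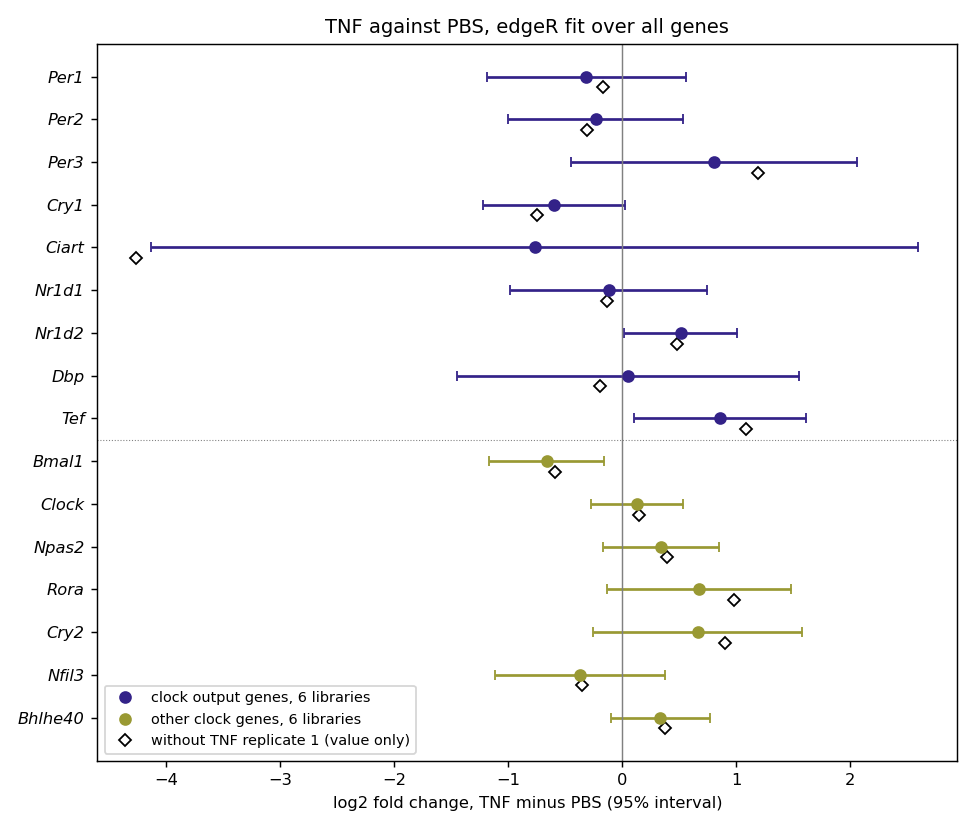
Log2 fold change of TNF against PBS (x axis) with its 95% interval from the edgeR fit over all genes, for 9 clock output genes (dark blue) and 7 other clock genes (olive), with the value without TNF replicate 1 as an open diamond. The intervals of Nr1d2, Tef and Bmal1 lie to 1 side of 0 before adjustment, and Ciart has the widest interval (-4.13 to 2.5958).

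Among the 7 kinases and ubiquitin ligase parts that set the life of PER and CRY proteins, 5 were higher and 2 lower (median log2 fold change 0.07), and 0 passed an adjusted p of 0.05. Fbxl21, an F-box protein that acts on cryptochromes, was at 6.94 ± 3.23 CPM (PBS) against 3.07 ± 0.985 CPM (TNF), with a log2 fold change of -1.18 (SE 0.46, edgeR unadjusted p 0.0287, adjusted p 0.354). Its exons share 6.93% of their bases with Lect2 on the opposite strand. Btrc, a ligase part that acts on PER proteins and is named after its values were seen, did not overlap between groups (10.9 to 14.3 CPM in PBS, 7.57 to 10.3 CPM in TNF), and did without TMM scaling. Over all genes, 7.82% had no overlap with TNF lower, and 4% had an unadjusted edgeR p under 0.05 with TNF lower.

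The 9 genes that follow the clock in other tissues were 6 higher and 3 lower (median log2 fold change 0.45), and 4 had an unadjusted p under 0.05, all higher in TNF: Nampt, Por, Cdkn1a and Tspan4. Over all genes, 12.3% had such a p, 8.25% with TNF higher. Cdkn1a, the p21 cell cycle inhibitor, had 39.6, 24.8 and 40.0 CPM (PBS) against 46.8, 113.9 and 110.9 CPM (TNF). Nampt, the rate-limiting enzyme of NAD salvage, had 36.0, 37.2 and 41.6 CPM (PBS) against 41.9, 75.0 and 80.2 CPM (TNF). In both genes TNF replicates 2 and 3 were far above TNF replicate 1, which was close to the PBS libraries. The log2 fold changes were 1.38 for Cdkn1a, 0.78 for Nampt, 0.97 for Por and 1.41 for Tspan4 (edgeR adjusted p 0.270 to 0.329). Without TNF replicate 1 these 4 genes passed (edgeR adjusted p 7.43e-04 for Cdkn1a, 0.00356 for Nampt, 0.00288 for Por and 0.0201 for Tspan4), where 14.5% of all genes did, 9.1% with TNF higher, and Cdkn1a passed in DESeq2 with all libraries (adjusted p 0.0192). Without TNF replicate 2, the log2 fold change of Por was 0.55 (edgeR adjusted p 0.663). Tspan4 shares 23.8% of its exon bases with Polr2l and 9.32% with Chid1, both on the opposite strand. Chid1 had a mean of 824.2 counts over the 6 libraries, against 37 for Polr2l.

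Usp2 and Wee1, which are E-box outputs in liver, had slightly lower means in TNF. Usp2 was at 6.79 ± 0.371 and 5.76 ± 1.30 CPM (log2 fold change -0.23, edgeR adjusted p 0.796), and Wee1 at 15.8 ± 1.09 and 13.04 ± 5.69 CPM (log2 fold change -0.28, adjusted p 0.765). As background, Cdkn1a and Nampt are known to respond to stress and inflammatory signals as well as to the clock.

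Of the 10 PC markers, 4 were higher in TNF and 6 lower. Clps had 2341, 1251 and 1231 CPM (PBS) against 2172, 259.5 and 467.3 CPM (TNF). Nupr1 had 288.7, 194.0 and 187.9 CPM (PBS) against 156.0, 975.3 and 925.2 CPM (TNF). Mmp7 had 5576, 5967 and 6895 CPM (PBS) against 12880, 7463 and 13710 CPM (TNF), with TNF replicate 1 also above every PBS library. It was the 1 of 10 PC markers whose groups did not overlap, where 9.07% of all genes had no overlap with TNF higher. Without TNF replicate 1, 1 PC marker passed as higher and 3 as lower (edgeR adjusted p under 0.05). In that fit 9.1% of all genes passed as higher and 5.4% as lower. Markers of other cell types also moved with some libraries. The 10 enterocyte markers summed to 276.6 to 310.4 CPM (PBS) against 332.5, 81.7 and 67.8 CPM (TNF, replicates 1 to 3), and all 8 that were tested were lower in TNF. Without TNF replicate 1, 6 of 10 enterocyte markers passed as lower in edgeR. In DESeq2 with all libraries 2 passed, beside 1.78% of all genes. The 7 stem and dividing cell markers summed to 2274 to 2864 CPM (PBS) against 4298, 431 and 449 CPM (TNF), and 7 of 7 were lower. Most of this sum was Olfm4 (2374, 2224 and 1925 CPM in PBS, 3887, 232.5 and 272.1 CPM in TNF). Lgr5 was at 54.0, 68.9 and 76.8 CPM (PBS) against 69.0, 68.3 and 42.2 CPM (TNF), with a log2 fold change of -0.15. Of the 7 stem and dividing cell markers, 5 passed as lower in edgeR without TNF replicate 1. In DESeq2 with all libraries 0 passed, and Olfm4 was given no adjusted p there. Tef, Per3, Cdkn1a, Nampt, Por, Tspan4 and Fkbp5 were highest in TNF replicates 2 and 3, where both sums were lowest. The part of enterocytes and of stem and dividing cells in any difference between the groups was not tested. The 8 goblet cell markers summed to 12410 to 13670 CPM (PBS) against 7917 to 15820 CPM (TNF), with 6 of 8 lower. Without TNF replicate 1, 5 of them passed as lower in edgeR, and 1 passed in DESeq2 with all libraries. The 8 tuft cell markers summed to 469.0 to 1655 and 590.4 to 1143 CPM, with 8 of 8 lower and 0 at an unadjusted edgeR p under 0.05. The 8 enteroendocrine markers summed to 50.6 to 128.9 and 38.0 to 122.3 CPM, with 5 of 8 lower. The 8 immune cell markers summed to 21.4 to 53.4 and 34.2 to 43.6 CPM, nearly all of it Ptprc and Lyz2, with Jchain at 0 counts in all libraries.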

How the data were processed

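RNA of sorted Paneth cells was measured in 3 PBS and 3 TNF libraries (1 mouse each). The authors deposited raw counts per Ensembl gene, with no unused sample column. The submitters' processing notes name FastQC, Trimmomatic 0.39, STAR 2.7.10a, DESeq2 and build mm39. For the annotation release, the strand setting and shared reads, the steps were not given in the sources used here. Gene symbols and positions came from GENCODE for GRCm39 (54749 of 55414 identifiers matched).

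Counts were tested in R 4.3.3 with edgeR 4.0.16 (filterByExpr, minimum count 10 and total 15, TMM factors, two-sided quasi-likelihood test, group as the only term, Benjamini-Hochberg over all genes). The tested genes held 99.8% of counts. The SE was taken as the size of the log2 fold change over the root of F, and CPM use TMM-scaled library sizes. Log2 CPM used a prior count of 2. Limits for a count of 0 take 3 counts. The fit was tested on simulated data, with the same dispersion for every gene and no outlying library. It therefore cannot show how the fit behaves with a library that stands apart from its group. No library pair of a group was a duplicate (chi-square per degree of freedom 24.8 or more).

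The alternatives were other scalings (RLE, library size, upper quartile), no filter, a mean CPM of at least 5, DESeq2 1.42.0, limma-voom (limma 3.58.1) with and without sample weights, a replicate block, each library left out, and a 1% threshold. The members and lists were chosen with earlier results of these data known. The text names all 10 members, fixed core clock genes, pathway genes with an unadjusted p under 0.05, and the 5 genes most like the members' mean profile, except for items that are not reported here.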

Additional observations from a re-analysis of the deposited data

How the results depend on the processing

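Counts of genes past an adjusted p of 0.05 depended on the tool and on 1 library. Over all genes the edgeR count of 0 (1596 at an unadjusted p under 0.05) became 690 with no low-count filter, 223 with DESeq2 and 1501 with limma-voom and sample weights, and ranged from 0 to 1980 when 1 library was left out, the highest without TNF replicate 1. Of the clock output genes, 0 passed, 1 (Tef) passed with sample weights, and 0 to 1 passed when 1 library was left out. The sign turned for Per1 with sample weights (0.29), for Nr1d1 with sample weights (0.089), and for Dbp under library size alone (-0.0732) and sample weights (-0.22). Leaving out 1 library gave -0.71 to 0.0279 for Per1, -0.43 to 0.34 for Nr1d1, -0.21 to 0.39 for Dbp and -0.6091 to 0.005 for Wee1 (log2 fold changes). The cause was not tested. The other members tested kept their sign under every alternative that gave a value, and Nr1d2, Cry1 and Bmal1 passed in none, with lowest adjusted p-values of 0.0772, 0.0981 and 0.0847. With library sizes alone, the all-gene median was -0.11. The replicate block left the count of genes past an adjusted p of 0.05 at 0, with 1395 at an unadjusted p under 0.05, and same-numbered libraries did not deviate together (r = -0.01, -0.08 and 0.03 over genes), so the numbers were not read as pairs. Dbp, Ciart and Hlf are limited by depth, with at most 22 counts in a library.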

Other observations

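Per1 is a classical target of the glucocorticoid receptor, so other genes of that response were read beside it. Of the 6 listed, 5 were higher in TNF and 1 lower (median log2 fold change 0.85), and 1 had an unadjusted p under 0.05, where 50% of all genes were higher and 12.3% had such a p. Fkbp5, which encodes a chaperone partner of the receptor, had 12.1, 10.01 and 8.82 CPM (PBS) against 9.18, 64.5 and 40.3 CPM (TNF, replicates 1 to 3). TNF replicates 2 and 3 were far above every other library, and TNF replicate 1 lay within the PBS range. The fold change on the log2 scale was 1.89 with an SE of 0.56 (edgeR adjusted p 0.284), and 2.37 without TNF replicate 1 (adjusted p 1.54e-04). Without TNF replicate 2 it was 1.23 (adjusted p 0.603). Fkbp5 passed in DESeq2 with all libraries (adjusted p 0.0276). Tsc22d3 (GILZ), another target, was at 19.98 ± 1.62 CPM (PBS) against 23.8 ± 1.97 CPM (TNF), with a log2 fold change of 0.25 (adjusted p 0.645). Per1 was highest in PBS replicate 1 and Fkbp5 in TNF replicate 2. The rest of the list is named after its values were seen (CPM, PBS against TNF, replicates 1 to 3). Sgk1 had 10.5, 5.87 and 1.47 against 2.46, 16.3 and 16.7. Zbtb16 had 1.23, 4.4 and 0.44 against 0.25, 6.16 and 6.28. Dusp1 had 9.02, 15.5 and 6.10 against 23.9, 11.01 and 15.3. Nr3c1 had 36.2, 29.3 and 22.6 against 37.6, 23.1 and 16.8. A part of glucocorticoid signals in these levels was not tested.

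The mean profile of the 9 tested members over the 6 libraries was highest in PBS replicate 2 (0.26) and lowest in PBS replicate 3 (-0.39) on the centred log2 scale, and Ciart, with its counts of 0, had the largest deviations of any member (-1.68 to 1.68). Of 9760 other genes, the 5 most like it were Uimc1, Cwf19l1, Xist, Pck2 and 6330403L08Rik, with Pearson correlations of 0.95 to 0.98 over 6 libraries, and 16 genes were above 0.9. This is a description of 6 libraries, and such values are the highest of many. Ciart weighed most in the mean profile, and neither the profile nor the genes most like it were computed without Ciart.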
